A study of Mus musculus with 7 samples.

Results

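The gene set described here holds 8 genes of the Nodal and activin pathway, Inhbb, Inhba, Nodal, Lefty1, Lefty2, Tdgf1, Smad7 and Skil, out of 22556 genes counted in the series. They were picked by name from a list of pathway genes, because Inhbb is among the genes whose total counts differed most between the study's cell lines. The comparison between the lines therefore chose the set, and for these 8 genes it is given as a description. Where the fit across all genes is quoted for them, it is only to say how many fell among its calls, and nothing is read from that number.

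Chromatin-associated RNA was sequenced from female F1 mouse embryonic stem cells, a cross of 129/Sv (Dom) with CAST/EiJ (Cast), so that sequence differences assign part of the fragments to an allele. In the line iXist-ChrX-Dom (4 libraries, clone A11B2 in the labels) a doxycycline-driven TetOn promoter took the place of the Xist promoter on the Dom X, and in iXist-ChrX-Cast (3 libraries, clone C7H8) on the Cast X. Both lines came from the parental line F1 2-1, carried the inducible Xist allele, stayed undifferentiated in serum and LIF and received doxycycline at 1 µg/mL for 10 days, so no uninduced cells enter these comparisons. Each line stands for 1 clone, and the cells had been grown on mitomycin C-treated mouse fibroblast feeders that were removed by pre-plating.

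Libraries held 14877384 to 24309806 counted fragments, of which 44.2% to 46.4% carried an allele. Replicates 3 and 4 of iXist-ChrX-Dom are described as day 1 samples in one field, where their titles and treatment fields give 10 days. In iXist-ChrX-Cast, files of replicates 1 and 2 are named for a clone that neither the labels nor the replicate 3 file mention. Replicates 1 and 2 of both lines also share a naming scheme that the later ones do not, and they are called the first replicate set below, against the later set of replicates 3 and 4. No label says what separates the sets. In iXist-ChrX-Dom the later set coincides with the day 1 description, and these cannot be told apart. In iXist-ChrX-Cast the same holds for the set and the clone name of the file.

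Activins are dimers of inhibin beta chains, which Inhbb and Inhba encode, and Nodal is a related ligand that needs the co-receptor Cripto, the product of Tdgf1. All bind activin receptors that phosphorylate Smad2 and Smad3, which enter the nucleus with Smad4 and act with partners such as Foxh1. Lefty1 and Lefty2 are secreted antagonists of Nodal and are themselves induced by the pathway, as are the inhibitory Smad7 and the Smad co-repressor SnoN, encoded by Skil. In mouse embryonic stem cells this signal is active without differentiation and feeds genes of the exit from naive pluripotency.

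RefSeq promoter windows (GRCm38.p6) were at hand for 4 of the 8 genes, Inhbb, Inhba, Nodal and Tdgf1. Both windows printed here hold the 250 bases before the RefSeq start, 5′ to 3′ on the gene's strand, and belong to Inhbb and Tdgf1, the members with a window whose libraries did not overlap between the lines. Capitals mark CAGAC, a sequence that Smad3 and Smad4 are known to bind, searched on both strands.
Inhbb, chr1:119422249-119422498, minus strand: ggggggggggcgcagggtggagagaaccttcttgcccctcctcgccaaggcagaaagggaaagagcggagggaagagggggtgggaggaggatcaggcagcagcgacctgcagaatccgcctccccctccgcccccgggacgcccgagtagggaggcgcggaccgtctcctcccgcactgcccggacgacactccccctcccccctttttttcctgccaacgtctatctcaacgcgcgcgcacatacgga
Tdgf1, chr9:110946159-110946408, minus strand: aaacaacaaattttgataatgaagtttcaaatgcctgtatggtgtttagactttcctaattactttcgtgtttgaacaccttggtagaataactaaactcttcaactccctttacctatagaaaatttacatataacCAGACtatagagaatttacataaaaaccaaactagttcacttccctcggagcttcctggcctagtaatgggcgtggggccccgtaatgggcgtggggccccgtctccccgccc
One match was found in Tdgf1 and none in the windows of Inhbb, Inhba or Nodal, while 42.2% of the 32851 mouse promoter windows of this length held one. The palindrome GTCTAGAC, a GTCT joined to its reverse complement and overlapping CAGAC in no complete copy, was in none of the 4 windows and in 0.167% of all. A missing match says only that these letters are not in the window. The Inhbb window was 68% G and C with 21 CpG pairs, against a median of 52.4% and 6 over all windows, and the Tdgf1 window was 42% with 7.

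Per kilobase of gene, introns included, the order of mean levels over the 7 libraries ran from Tdgf1 (27.0 ± 5.76 CPM per kb, SD, n = 7) through Lefty2 (8.75 ± 3.74), Lefty1 (6.35 ± 2.70), Skil (5.06 ± 0.834), Smad7 (4.45 ± 0.950) and Nodal (3.18 ± 0.834) to Inhbb (1.15 ± 1.1) and Inhba (0.135 ± 0.039). CPM are TMM-scaled counts per 1000000 fragments. Neighbours from Lefty2 to Nodal overlapped within their SDs. Tdgf1 stood above that middle group and Inhba below it. Inhbb was below it in iXist-ChrX-Dom, at 0.365 ± 0.154 CPM per kb (SD, n = 4), but at 2.19 ± 0.847 in iXist-ChrX-Cast (SD, n = 3) it overlapped Nodal, at 3.54 ± 0.892 there, within the SDs.

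Inhbb (chr1:119415464-119422248, minus strand, mm10) was the member with the largest ratio of highest to lowest library, 15.7-fold. It was at 1.93, 1.30, 3.57 and 3.11 CPM in iXist-ChrX-Dom replicates 1 to 4 and at 15.3, 20.4 and 8.92 CPM in iXist-ChrX-Cast replicates 1 to 3. The lines did not overlap, and the means were 2.48 ± 1.05 (SD, n = 4) and 14.9 ± 5.75 CPM (SD, n = 3), a fitted log2 fold change of -2.60 ± 0.35 (SE) for iXist-ChrX-Dom over iXist-ChrX-Cast. Counts behind these values were 32 to 67 fragments in iXist-ChrX-Dom, with 178 to 400 in iXist-ChrX-Cast.

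The lower level of Inhbb in iXist-ChrX-Dom was seen on both alleles, although few fragments carried one. On the Cast allele 15 fragments were counted over the 4 iXist-ChrX-Dom libraries and 44 over the 3 iXist-ChrX-Cast libraries, or 0.172 and 0.842 CPM on average. On the Dom allele the counts were 9 and 64, or 0.105 and 1.22 CPM. Each allele was thus lower in iXist-ChrX-Dom, by 4.88-fold on Cast and 11.6-fold on Dom in these means, with no test.

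Inhba (chr13:16014474-16027211, plus strand), the beta chain of activin A, was low throughout, at 0.921 to 1.83 CPM in iXist-ChrX-Dom, with 1.55 to 2.46 in iXist-ChrX-Cast. The lines overlapped. At 21 to 45 fragments a library, a moderate change of this gene was not detectable.

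Nodal (chr10:61417971-61425337, plus strand) was at 16.1, 16.9, 28.1 and 24.6 CPM in iXist-ChrX-Dom, with 19.6, 25.8 and 32.8 CPM in iXist-ChrX-Cast. Its values overlapped between the lines and were higher in the later replicates of each. Tdgf1 (chr9:110939607-110946158, minus strand) was at 154.3, 133.3, 160.3 and 148.3 CPM against 193.6, 237.8 and 209.2 CPM. The co-receptor gene was lower in every iXist-ChrX-Dom library than in any iXist-ChrX-Cast library, with means of 149.0 ± 11.6 (SD, n = 4) and 213.5 ± 22.4 CPM (SD, n = 3).

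The antagonist genes lie 35936 bases apart on chromosome 1. Lefty1 (chr1:180935038-180938401, plus strand) was at 9.43, 13.0, 19.2 and 18.5 CPM in iXist-ChrX-Dom, with 24.0, 34.9 and 30.4 in iXist-ChrX-Cast, again without overlap. Lefty2 (chr1:180893118-180899102, plus strand) was at 25.9, 21.2, 67.5 and 59.9 CPM against 45.3, 65.5 and 81.2, with overlap. Within iXist-ChrX-Dom the later replicates of Lefty2 lay far above the first, and the spread of that line, 43.6 ± 23.5 CPM (SD, n = 4), was mostly the step between sets.

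Smad7 (chr18:75367364-75395934, plus strand) was at 85.7, 99.4, 121.5 and 139.1 CPM in iXist-ChrX-Dom, with 143.5, 134.6 and 165.1 CPM in iXist-ChrX-Cast. The lines overlapped through iXist-ChrX-Dom replicate 4. Skil (chr3:31095057-31122923, plus strand) was at 136.6, 150.7, 127.4 and 108.9 CPM against 169.6, 169.8 and 124.9 CPM, and also overlapped.

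**Figure D1:**
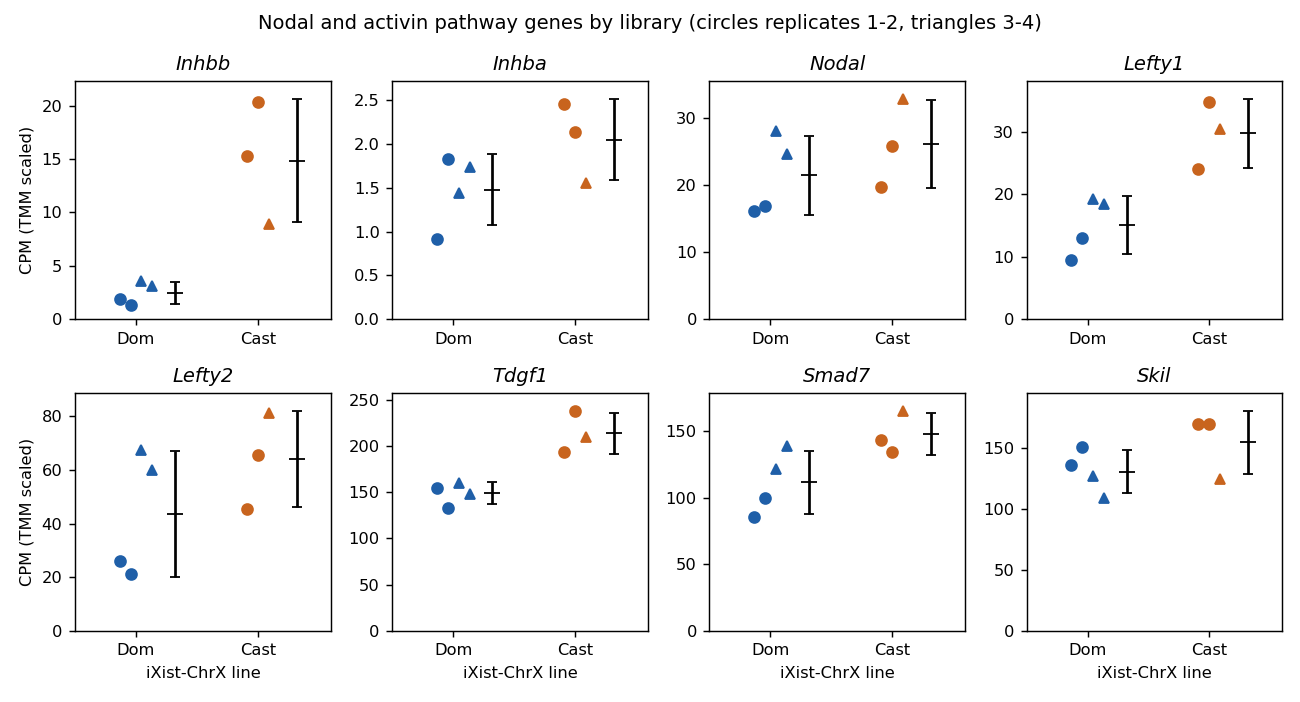
TMM-scaled CPM (vertical axes, linear from 0) of the 8 genes in each library, with iXist-ChrX-Dom in blue and iXist-ChrX-Cast in orange, circles for replicates 1 and 2, triangles for replicates 3 and 4, and the black bar for mean ± SD. Inhbb, Lefty1 and Tdgf1 do not overlap between the lines, and Nodal, Lefty2 and Smad7 are higher in the later replicates.

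All 8 fitted log2 fold changes were below 0, which means lower in iXist-ChrX-Dom, as were 50.5% of the 15186 genes tested. After Inhbb they were -0.99 ± 0.24 (SE) for Lefty1, -0.56 ± 0.37 for Lefty2, -0.52 ± 0.11 for Tdgf1, -0.46 ± 0.29 for Inhba, -0.41 ± 0.16 for Smad7, -0.29 ± 0.23 for Nodal and -0.24 ± 0.14 for Skil. Inhbb and Tdgf1, 2 of 8, fell among the calls of edgeR's quasi-likelihood fit at an adjusted p of 0.05, which held 2.92% of all genes, 1.72% with iXist-ChrX-Dom lower. With 1 library left out the number of members among them ran from 0 to 3. Tdgf1 stayed among them only without iXist-ChrX-Cast replicate 3, and Inhbb dropped out only without replicate 2 of that line. In 3 of 8 the lines did not overlap with iXist-ChrX-Dom lower, against 8.1% of all tested genes. These shares follow from how the set was picked and nothing is read from them.

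The same holds for 2 other fits of this contrast. With the replicate number as a block 5 of the 8 genes were among the lower calls (6.45% of all genes), and the log2 fold change of Lefty2 was -0.89 ± 0.15 (SE). With the replicate set as a covariate 6 were (8.28% of all genes). Inhbb, Lefty1 and Lefty2 lie on chromosome 1, whose 906 tested genes had a median log2 fold change of -0.15, and whose median Cast share was 46.6% to 46.8% in iXist-ChrX-Dom, with 42.1% to 46.1% in iXist-ChrX-Cast. The other members' chromosomes had medians between -0.01 and 0.02. What part the chromosome plays in the 3 genes was not tested.

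Alleles within a library are a contrast that did not choose the set. The Cast share is the part of allelic fragments assigned to Cast, and its median over autosomal genes was 47.1% to 48.1% across libraries. The test below, edgeR's quasi-likelihood test with one Cast-over-Dom coefficient a line, is relative to that balance and called 57.3% of 13031 genes in iXist-ChrX-Dom, with 52.2% in iXist-ChrX-Cast. Among the members 4 of 8 were called in iXist-ChrX-Dom, with 3 of 8 in iXist-ChrX-Cast, so a call by itself does not set them apart. Lefty2, Skil and Inhba, 3 of 8, were called with Cast lower in both lines, as were 20% of all genes.

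Lefty2 was the member furthest from balance with many fragments. Its Cast share was 32.4%, 31.8%, 34.1% and 34.2% in iXist-ChrX-Dom, with 28.3%, 31.7% and 33.4% in iXist-ChrX-Cast, from 380 to 1215 allelic fragments a library. The log2 ratio of Cast over Dom was -0.86 ± 0.07 (SE, adjusted p = 2.39e-10, edgeR) and -0.98 ± 0.07 (adjusted p = 9.61e-11, edgeR). Lefty1, its neighbour, was at 45.4% to 47.9% and 42.3% to 49.8%, and its ratios of -0.06 ± 0.10 (adjusted p = 0.644, edgeR) and -0.15 ± 0.10 (adjusted p = 0.217, edgeR) missed the threshold. The Cast share of Lefty1 exceeded that of Lefty2 in 7 of 7 libraries, by 13.8 ± 3.74 points (SD, n = 7, p = 0.0156 in an exact two-sided sign-flip permutation test, the smallest it can give). This test was not among those planned, and the 7 libraries repeat 1 clone a line, so it adds little to the shares themselves. In transcripts, 173 windows of a read's 81 bases, 6.84% of those of Lefty2 and 10.3% of those of Lefty1, occur in both genes. A read inside such a window has no unique position by itself, but reads were aligned in pairs. What this does to the shares was not tested.

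Skil also leaned to Dom in both lines. Its Cast share ran from 42.9% to 45.5% in iXist-ChrX-Dom, with 41.9% to 43.8% in iXist-ChrX-Cast, with log2 ratios of -0.21 ± 0.05 (SE, adjusted p = 0.000684, edgeR) and -0.28 ± 0.05 (adjusted p = 0.00013, edgeR). Inhba was called as well, at -1.79 ± 0.48 (adjusted p = 0.00297, edgeR) and -1.20 ± 0.48 (adjusted p = 0.0429, edgeR), from 54 and 50 allelic fragments in all. One of its libraries held 0 Cast fragments of 7, which allows a share of up to 42.9%. The call in iXist-ChrX-Cast was lost without replicate 1 (log2 ratio -0.96) or replicate 2 (-0.92) of that line and with DESeq2 (-1.17).

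A list of 12 fibroblast genes had a pooled Cast share of 20.4%, from 15.5% to 29.6% by library, beside the 24.0% of Inhba. Col5a2 carried the most of these fragments, 820 on Cast and 3325 on Dom, a share of 19.8%. The genes of the list differed, with Col1a2 at 9.19%, Col1a1 at 46.0% and Acta2 at 55.5%. The list summed to 67.4 to 118 CPM in iXist-ChrX-Dom, with 68.4 to 96.2 CPM in iXist-ChrX-Cast, none of its genes was at 0 in every library, and 0 of 11 tested were called between the lines with edgeR (0 at an unadjusted p under 0.05, 0 with DESeq2, and 1, Acta2, with the block). Lum was at 0 in all 3 iXist-ChrX-Cast libraries. Whether RNA of remaining feeder cells has a part in the Inhba values was not tested.

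Tdgf1 leaned to Cast in iXist-ChrX-Dom. Its Cast share was 56.0%, 53.9%, 53.6% and 54.4% there (log2 ratio 0.40 ± 0.04, SE, adjusted p = 7.95e-08, edgeR) and 51.8%, 48.5% and 48.4% in iXist-ChrX-Cast (0.11 ± 0.05, adjusted p = 0.0837, edgeR). The lines' shares did not overlap, which is given with no test. On the Dom allele Tdgf1 was at a mean of 51.9 CPM in iXist-ChrX-Dom, below the 82.3 of iXist-ChrX-Cast, and on the Cast allele at 62.1 against 80.5 CPM. A pseudogene, Tdgf1-ps1, shares 5.30% of the read-length windows of Tdgf1 transcripts. Reads from those windows have no unique position by themselves, but reads were aligned in pairs. What this does to the counts of Tdgf1 was not tested.

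Nodal and Smad7 stayed near balance. Nodal's Cast share was 44.0% to 48.8% and 44.4% to 51.0%, and that of Smad7 was 45.2% to 47.4% and 47.1% to 48.3%. Both missed the threshold in both lines. For Inhbb 24 allelic fragments in iXist-ChrX-Dom gave a pooled Cast share of 62.5% (95% Wilson interval 42.7% to 78.8%), and 108 in iXist-ChrX-Cast gave 40.7% (31.9% to 50.2%). Neither ratio, 0.84 ± 0.53 (adjusted p = 0.203, edgeR) and -0.40 ± 0.28 (adjusted p = 0.242, edgeR), passed. Intervals cover counting error only.

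**Figure D2:**
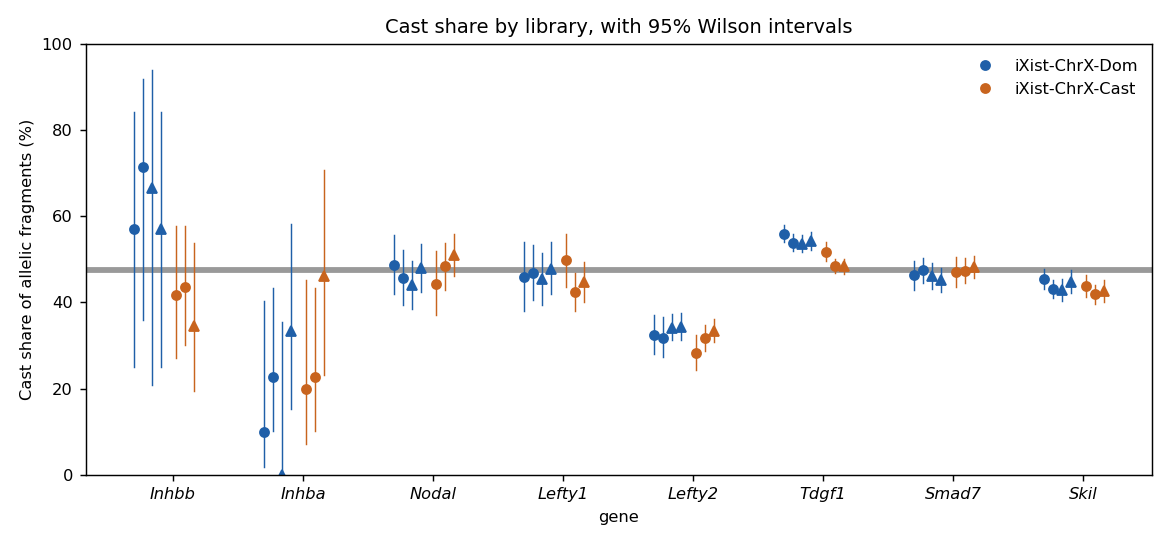
Cast share of allelic fragments (vertical axis, percent) of each gene in each library, with vertical lines for 95% Wilson intervals, blue for iXist-ChrX-Dom, orange for iXist-ChrX-Cast, triangles for replicates 3 and 4, and a grey band for the range of autosomal medians. Lefty2 lies below the band in all 7 libraries, Tdgf1 above it in all 7 and furthest in iXist-ChrX-Dom, and the intervals of Inhbb and Inhba are wide.

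The replicate sets gave a second contrast within the lines, with line as a covariate, and moved many genes: 30.3% of 15186 were called, 16.3% higher in the later set. Of the members 5 of 8 were called, 4 higher and 1 lower in the later set. Lefty2 rose by a log2 difference of 1.08 ± 0.16 (SE, adjusted p = 0.000233, edgeR), from 23.5 to 63.7 CPM in the mean of iXist-ChrX-Dom and from 55.4 to 81.2 CPM in iXist-ChrX-Cast. Nodal rose by 0.61 ± 0.11 (adjusted p = 0.00111, edgeR) and Smad7 by 0.40 ± 0.09 (adjusted p = 0.00438, edgeR). Lefty1 rose by 0.45 ± 0.17 (adjusted p = 0.0487, edgeR), a call that was lost with RLE scaling (0.44) and without any one of iXist-ChrX-Dom replicates 1 to 4 (0.28 to 0.48) or iXist-ChrX-Cast replicate 1 (0.41). Skil fell by 0.35 on the log2 scale (SE 0.09, adjusted p = 0.00716, edgeR), a call lost in iXist-ChrX-Dom alone and without iXist-ChrX-Cast replicate 3 (-0.28 in both).

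Tdgf1 (0.04 ± 0.09, adjusted p = 0.757, edgeR), Inhba (-0.11 ± 0.28, adjusted p = 0.795, edgeR) and Inhbb (-0.02 ± 0.33, adjusted p = 0.964, edgeR) missed the threshold. For Inhbb this value joined opposite steps. In iXist-ChrX-Dom it went from 1.61 to 3.34 CPM, and in iXist-ChrX-Cast from 17.8 CPM in replicates 1 and 2 to 8.92 CPM in replicate 3. Within iXist-ChrX-Dom alone the log2 difference was 1.06 ± 0.27 (SE, adjusted p = 0.0182, edgeR), and the interaction of line and set was 2.06 ± 0.35 (SE, adjusted p = 0.0564, edgeR), where 0.0132% of genes were called.

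That interaction was first computed with a filter on low counts set by line and replicate set together, which kept 15890 genes and gave Inhbb an adjusted p of 0.0473 (edgeR), past the threshold, with 0.0441% of genes called. The filter by line was taken up after that value had been seen, so that every comparison of totals used the same 15186 genes, and both values are given for that reason. The later set of iXist-ChrX-Cast is 1 library, and nothing separates it from its file's clone name. That of iXist-ChrX-Dom holds the replicates described as day 1 in one field.

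**Figure D3:**
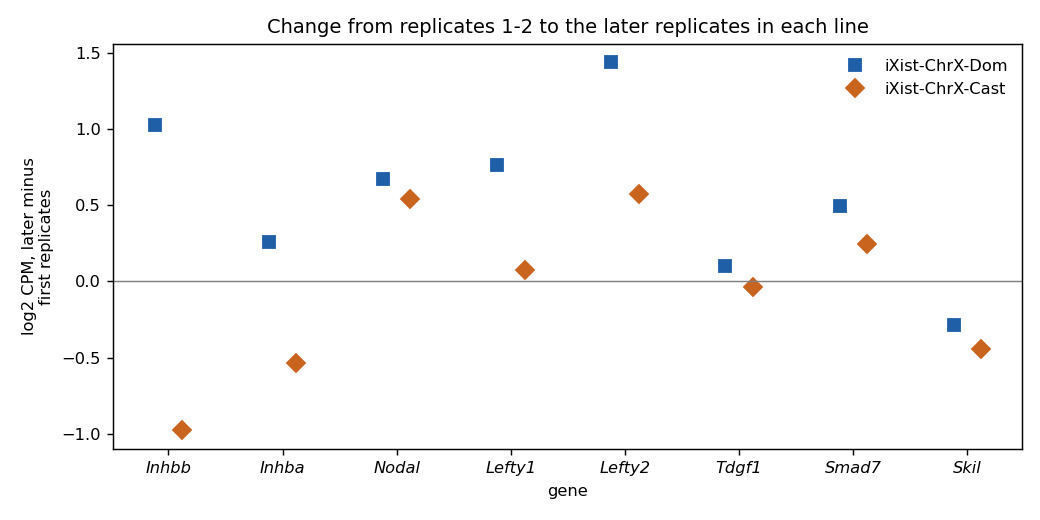
Difference in mean log2 CPM (vertical axis) between the later replicates and replicates 1 and 2 for each gene, blue squares for iXist-ChrX-Dom and orange diamonds for iXist-ChrX-Cast, whose later set is 1 library. Lefty2, Nodal and Smad7 are above 0 in both lines, Skil is below 0 in both, and Inhbb has opposite signs.

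Markers of other cell states were also compared between the sets. Of 10 tested primitive endoderm genes 7 were called (30.3% of all genes were), 6 of them higher in the later set, and the list of 12 summed to 490.2 to 669 CPM in the first set and 725 to 823 CPM in the later one. In the fibroblast list 4 of 11 were called, beside the same 30.3%, with 2 in each direction. Its sums were 94.8 to 118 CPM and 67.4 to 84.4 CPM. Naive pluripotency genes were present, with iXist-ChrX-Dom first, Pou5f1 at 73.4 and 83.5 CPM, Nanog at 63.9 and 75.1 CPM and Esrrb at 452.3 and 511.9 CPM. Of 11 tested, 4 were called between the sets (30.3% of all genes were), 3 higher in the later one. Between the lines 1, Tbx3, was called (log2 fold change -1.06 ± 0.12, adjusted p = 0.00316, edgeR). DESeq2 called 3 (7.2% of all genes) and the fit with the block 4 (11.8%), all lower in iXist-ChrX-Dom. Sox2 was listed at 0 in every library, and it lies inside Sox2ot on the same strand. Whether these marker levels have a part in the members' values was not tested, and in bulk RNA fewer cells of a type and less RNA per cell cannot be told apart.

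Beyond the members, 53 other genes of the pathway were listed by role, and 41 were tested. Between the lines 0 of 41 passed edgeR's test at an adjusted p of 0.05, beside 2.92% of all genes. At an unadjusted p under 0.05 there were 8, beside 2638 of all 15186 genes. DESeq2 called 2 (7.2% of all genes), and with the replicate block 6 were called (11.8% of all genes were), 2 higher and 4 lower in iXist-ChrX-Dom. Their median log2 fold change was -0.05, against -0.00283 over all genes and -0.49 over the members. The contrast chose the members, so nothing is read from their median.

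None of the 6 tested ligand genes, 7 receptor genes or 2 convertase genes was called between the lines, by edgeR with or without the block or by DESeq2. With neither the block nor the replicate set in the fit, 0 of them had an unadjusted p under 0.05. Gdf3, a ligand that also uses Cripto, was at 53.3 ± 6.76 CPM in iXist-ChrX-Dom (SD, n = 4) against 46.7 ± 7.33 CPM in iXist-ChrX-Cast (SD, n = 3). Inha, whose product pairs with the beta chains to form inhibins, was at 0.614 ± 0.227 and 1.21 ± 0.707 CPM. The activin receptors Acvr2a (log2 fold change 0.09) and Acvr1b (-0.18) and the effectors Smad2 (-0.13), Smad3 (0.27) and Smad4 (0.12) had small differences that missed the threshold.

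With the block, 4 of 13 tested inhibitor genes were called, beside 11.8% of all genes. Dand5, a secreted Nodal antagonist, was higher in iXist-ChrX-Dom by a log2 fold change of 0.81 ± 0.25 (SE, adjusted p = 0.0285, edgeR), and the ubiquitin ligase gene Smurf2 by 0.42 ± 0.11 (adjusted p = 0.00918, edgeR). Smurf1, a related ligase gene, was lower at -0.42 ± 0.11 (adjusted p = 0.00779, edgeR) and so was Pmepa1, an inhibitor that the pathway induces, at -0.49 ± 0.12 (adjusted p = 0.00588, edgeR). Among the targets Fgf5 (-0.87 ± 0.16, adjusted p = 0.000438, edgeR), a gene of the primed state, was lower. With neither the block nor the replicate set in the fit, these 5 genes missed the threshold. Their adjusted p ran from 0.0905 for Smurf2 to 0.466 for Pmepa1 (edgeR). With the replicate set as covariate 6 of 13 inhibitor genes were called, 3 higher and 3 lower, beside 2398 of all 15186 genes. They were the same 4 with Tgif1 (-0.32, adjusted p = 0.0218, edgeR) and Ltbp1 (0.35, adjusted p = 0.0122, edgeR). Outside the inhibitors, that fit called Fgf5 (-0.76, adjusted p = 0.0048, edgeR) and Zfyve9 (0.30, adjusted p = 0.0204, edgeR).

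In the BMP arm, a neighbouring branch through other Smads, 0 of 13 genes passed edgeR's test between the lines (2.92% of all genes did). At an unadjusted p under 0.05 there were 5, beside 2638 of all 15186 genes. DESeq2 called 4 (7.2% of all genes) and the fit with the block 5 (11.8%). With the block Bmp4 (-0.59 ± 0.13, adjusted p = 0.00226, edgeR) and the target Id2 (-0.72 ± 0.18, adjusted p = 0.00785, edgeR) were lower in iXist-ChrX-Dom. The receptor genes Bmpr1b (0.92 ± 0.12, adjusted p = 7.91e-06, edgeR) and Acvr1 (0.40 ± 0.12, adjusted p = 0.0256, edgeR) and Smad1 (0.39 ± 0.11, adjusted p = 0.018, edgeR) were higher.

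**Figure D4:**
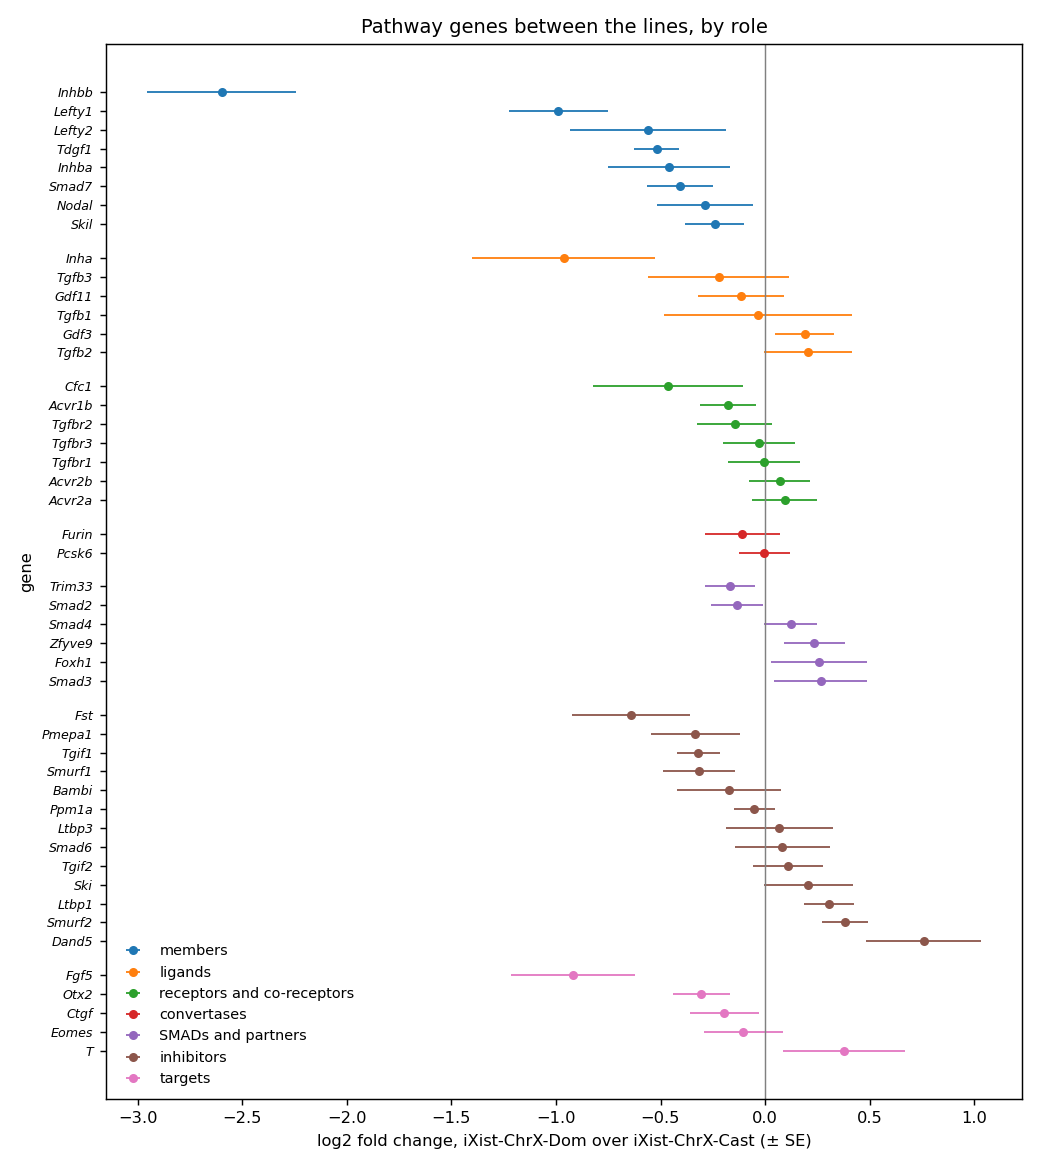
Log2 fold change ± SE (horizontal axis) of iXist-ChrX-Dom over iXist-ChrX-Cast for the 8 members and 39 of the 41 tested genes of the other lists, grouped by role, from the fit without a block. The 8 members lie below 0, Inhbb at -2.60, and as this contrast chose the set nothing is read from that. The convertase genes also lie below 0, and each other role has genes on both sides of 0.

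Between the replicate sets 19 of the 41 genes were called, beside 30.3% of all genes, 9 higher and 10 lower in the later set. Smad3 (0.59 ± 0.11, adjusted p = 0.000975, edgeR), its partner Foxh1 (0.51 ± 0.14, adjusted p = 0.0124, edgeR), the co-repressor Ski (0.56 ± 0.10, adjusted p = 0.000806, edgeR) and Pmepa1 (0.56 ± 0.11, adjusted p = 0.00121, edgeR) rose. Of 13 tested inhibitor genes, Ski and Pmepa1 among them, 7 were called, 5 higher and 2 lower. Those lower were Bambi (-0.66 ± 0.13, adjusted p = 0.00187, edgeR) and Smurf2 (-0.21 ± 0.08, adjusted p = 0.0462, edgeR). The receptor genes Tgfbr1 (-0.48 ± 0.09, adjusted p = 0.000996, edgeR) and Acvr2a (-0.41 ± 0.08, adjusted p = 0.0021, edgeR) fell, as did the target Fgf5 (-0.78 ± 0.17, adjusted p = 0.00299, edgeR). Of the 6 tested SMADs and partners 5 were called, 2 higher and 3 lower. Those lower were Smad2 (-0.27 ± 0.09, adjusted p = 0.0252, edgeR), Smad4 (-0.27 ± 0.09, adjusted p = 0.0262, edgeR) and Zfyve9 (-0.37 ± 0.08, adjusted p = 0.00375, edgeR).

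The genes whose log2 CPM followed Inhbb most closely over the 7 libraries, among 13869 with a mean of at least 1 CPM, were Sin3a, Las1l, Arid2, Csrp2 and Baz1b, with Pearson's r from 0.986 to 0.990. This is a description, since the step between the lines alone gives such values to many genes. With each line centred on its own mean, their r was 0.922 to 0.958, and Fgf17 came first at 0.992. Of the members, Tdgf1 had r = 0.946 with Inhbb, Lefty1 0.886 and Lefty2 0.657, and with the lines centred these fell to 0.643, 0.573 and 0.595. Nodal and Lefty2 had r = 0.951, and 0.945 with the lines centred. Centring on the lines leaves the step between the replicate sets in all of these values. Nodal and Lefty2 both rose in that step, by 0.61 and 1.08 on the log2 scale, so the centred values are a description too.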

How the data were processed

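Chromatin RNA-seq totals and allele-resolved counts came from 7 libraries. Per the labels and the study's methods, the authors removed ribosomal reads with Bowtie2 2.3.2, used STAR 2.4.2a for end-to-end alignment of paired reads on mm10 with strain-variant bases masked (unique hits, at most 4 mismatches), split fragments by allele with SNPsplit and deposited raw counts per gene from featureCounts 1.5.2, stranded, over whole transcripts with introns. Fragments over more than 1 gene were not counted. The deposited fraction tables (the inactive X allele's part of the allelic counts per X-linked gene, Cast in iXist-ChrX-Cast but Dom in the other line) were used only to check which column is which allele. The members and gene lists were chosen with earlier results of these data known.

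Totals and allelic counts were tested over the whole table with edgeR 4.0.16 in R 4.3.3 (quasi-likelihood, TMM, filterByExpr by line, two-sided, Benjamini-Hochberg at 0.05), with DESeq2 1.42.0 as an alternative. The allele fit had library as a covariate and the replicate set fit had line. Replicates are separate samples in the labels, which name no separate cultures, so p-values measure the spread between these samples. Scripts were tested on simulated data. For the set fits a filter by line and set together was run first, and the filter by line replaced it after its results had been seen. Named genes were the members, other pathway genes past the threshold and the 5 genes most like Inhbb. As none of the other pathway genes passed, those named from the block, the replicate sets or by role were chosen after their values were seen. Some genes of the lists enter the counts but are not reported here by name.

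Same-numbered replicates of the lines deviated together from their line means (r = 0.329, 0.275 and 0.466 for numbers 1 to 3 over tested genes). The replicate block was kept as an alternative fit. Different numbers of the first set correlated as much (0.384 and 0.323), and so did iXist-ChrX-Dom replicate 4 with iXist-ChrX-Cast replicate 3 (0.505). The pairing thus follows the replicate sets and not the numbers, which give no ground for the block beyond the sets. In the block, iXist-ChrX-Dom replicate 4 has no partner in the other line.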

Additional observations from a re-analysis of the deposited data

Results flagged for a closer look

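The Cast share of Inhbb lay above 50% in every iXist-ChrX-Dom library (mean 63.1%) and below it in every iXist-ChrX-Cast library (mean 39.9%). The difference was not tested, and single iXist-ChrX-Dom libraries held 3 to 7 allelic fragments. The median over genes of chromosome 1, where Inhbb lies, was 46.6% to 46.8% in iXist-ChrX-Dom and 42.1% to 46.1% in iXist-ChrX-Cast. What part the chromosome plays in the shares of Inhbb was not tested.

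The step of Inhbb between the replicate sets differed between the lines by 2.06 on the log2 scale. Its adjusted p was 0.0564 with the filter by line and 0.0473 with the filter by line and set (edgeR), so between these the call turns on the filter, which was changed after the first value was seen. It was also past the threshold with DESeq2 (adjusted p = 0.00269) with RLE scaling (adjusted p = 0.0478, edgeR), without a filter (adjusted p = 5.71e-06, edgeR) and without iXist-ChrX-Dom replicate 1 (adjusted p = 0.00429, edgeR) or 2 (adjusted p = 0.0336, edgeR). It was missed without iXist-ChrX-Dom replicate 3 (adjusted p = 0.447, edgeR) or 4 (adjusted p = 0.433, edgeR) and without iXist-ChrX-Cast replicate 1 (adjusted p = 0.106, edgeR) or 2 (adjusted p = 0.068, edgeR). The lone later library of iXist-ChrX-Cast is assumed to vary like the others.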

How the results depend on the processing

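The 443 calls between the lines became 1094 with DESeq2, 1794 with the replicate block, 2398 with the replicate set as covariate, 1685 in replicates 1 and 2 alone and 18 to 1206 with 1 library left out, fewest without iXist-ChrX-Cast replicate 2 and most without replicate 3 of that line. The other pathway genes called went from 0 to 2, 6, 8 and 6 under the first 4 of these, and to between 0 and 4 with 1 library left out. The 8 members kept their sign between the lines under every alternative run, and Inhbb reached -3.47 in replicates 1 and 2 alone. This contrast chose the set, so nothing is read from that. No alternative held the later set alone, where iXist-ChrX-Cast has 1 library. The lines' difference in mean log2 CPM was -1.39 for Inhbb in that set, and for Inhba it was 0.024, above 0. The 4606 calls between the replicate sets became 2851 in iXist-ChrX-Dom alone and 2518 to 4501 with 1 library left out, fewest without iXist-ChrX-Cast replicate 3. There the sign turned for Inhbb (0.26 with DESeq2, 1.06 in iXist-ChrX-Dom alone, -0.35 to 1.05 with 1 library left out), Inhba (0.21 in iXist-ChrX-Dom alone, -0.37 to 0.20) and Tdgf1 (-0.023 to 0.10). The Inhbb interaction was 2.06 with the filter by line and set, 2.07 with DESeq2 and with RLE scaling, 2.05 without a filter and 1.80 to 2.36 with 1 library left out, and these alternatives were chosen after seeing the data. Without scaling the alleles, the iXist-ChrX-Cast log2 ratio turned to -0.081 for Nodal, -0.032 for Tdgf1 and -0.14 for Smad7. That setting moves all genes alike by construction, their median going from -0.03 to -0.17. With 1 library left out the iXist-ChrX-Cast ratio ran from -0.028 to 0.12 for Nodal and from -0.0079 to 0.029 for Smad7. For the other changes the cause was not tested. Inhba had too few allelic fragments to be tested without iXist-ChrX-Dom replicate 2. Depth limits Inhba and the allelic values of Inhbb.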
